A study of Homo sapiens with 54 samples.

Results

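SUM1315 is a BRCA1 mutant triple negative breast cancer (TNBC) cell line, and the comparison described here asked which of its genes responded differently to cisplatin (CDDP) after the cells had acquired olaparib resistance (OlaR). It used 12 of the 54 libraries of the series, 3 in each of 4 groups, chosen by their labels alone. Parental cells had received 8 µM olaparib overnight, either without further drug or together with 4 µM CDDP. OlaR cells had been derived from the same line by stepwise increases of olaparib over months, were kept in 25 µM olaparib without a break, and had received either nothing more or 4 µM CDDP. All 4 groups therefore held olaparib, but at a dose and for a time that differed between parental and OlaR cells, so resistance, olaparib dose and olaparib duration cannot be told apart. The OlaR cells were 1 derived culture, and the labels' protocols print mM where the study's methods print µM. The labels number the libraries 1 to 3 in each group without saying that they came from separate cultures, so the p-values below measure the spread between these libraries, which may be technical. For each gene the CDDP change in parental cells was subtracted from the CDDP change in OlaR cells. A gene is called higher where this difference was positive and lower where it was negative, at an adjusted p of 0.05 or less.

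CDDP binds to guanines and forms crosslinks within and between DNA strands, and the bulky adducts stall DNA polymerases at the replication fork and RNA polymerase II on the transcribed strand. Cells remove or bypass them by nucleotide excision repair, the Fanconi anaemia pathway, homologous recombination and translesion synthesis. Olaparib inhibits PARP1 and traps it on DNA, and loss of BRCA1 function can make cells sensitive to it. In the lines of the study, however, sensitivity to olaparib did not follow BRCA1 status. Parental SUM1315 cells tolerated more olaparib than the BRCA1 wild-type line MDA-MB-468.

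The libraries held 5532381 to 7157852 reads in parental cells and 3446613 to 4665505 reads in OlaR cells, so low counts are less precise in OlaR cells. Expression is given as adjusted read counts, which are on a common library size but are not corrected for gene length, since each read marks the 3′ end of 1 transcript. Values are listed in the order of libraries 1, 2 and 3, and folds are on the scale of the value plus 1. The cell type was checked against marker genes. The summed level of 7 mesenchymal markers was 14220 to 23260 over the 12 libraries and that of 9 epithelial markers was 325.5 to 477.8, with 3 of the 9 under 10 in every library. Blood and endothelial markers summed to 9.438 to 84.31 and 44.95 to 175.8, and CD3E and CDH5 had 0 reads throughout. Single genes made up much of each sum. Group means were 8242 to 13000 for VIM and 252.5 to 313.6 for KRT18. They were 16.22 to 66.96 for the blood marker CD14 and 61.93 to 158.8 for the endothelial marker PECAM1. In such bulk samples, fewer expressing cells and less RNA per cell cannot be told apart.

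Of 13133 genes tested, 841 (6.4%) differed in their CDDP response, 262 (1.99%) being higher and 579 (4.41%) lower in OlaR cells by limma with Benjamini-Hochberg adjustment. The genes that were lower included very long genes, inflammatory cytokines, feedback inhibitors of MAPK signalling, DNA replication genes and replication-dependent histones. The genes that were higher included antioxidant targets of NRF2 and the glutathione-degrading enzyme CHAC1. CDDP changed 1108 genes (8.44%) in parental cells on olaparib, of which 571 rose (4.35%) and 537 fell (4.09%). In OlaR cells it changed 2199 genes (16.7%), of which 937 rose (7.13%) and 1262 fell (9.61%). The order of these counts turned with voom on the recovered reads, which called 1509 genes in parental and 1274 in OlaR cells. Of the 579 genes that were lower, 355 fell in OlaR cells and were not called in parental cells, and 108 rose in parental cells and were not called in OlaR cells. A further 32 rose in parental and fell in OlaR cells, 22 fell in both, 12 rose in both and 50 passed in neither. Of the 262 genes that were higher, 131 rose in OlaR cells alone by these calls, 81 fell in parental cells alone, 9 fell in parental and rose in OlaR cells, 1 fell in both and 40 passed in neither. The median CDDP change of the 579 genes was 0.26 in parental and −0.64 in OlaR cells on the log2 scale, and that of the 262 genes was −0.36 and 0.42. The median difference over all genes tested was 0.0062. Before CDDP, 6203 of the 13133 genes (47.2%) already differed between OlaR cells and parental cells on olaparib. Where starting levels differ, responses in log2 and in counts can differ in order. The count of 262 rested more on single libraries than that of 579, and it was 139 without OlaR replicate 2, 143 and 165 without parental olaparib replicates 2 and 1, 147 and 171 without parental olaparib and CDDP replicates 3 and 1, and 170 without OlaR and CDDP replicate 1. The parental count of 1108 was 573 and 646 without parental olaparib replicates 1 and 2, and 639 and 681 without parental olaparib and CDDP replicates 2 and 3. The OlaR count of 2199 was 1386 without OlaR and CDDP replicate 1.

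**Figure D1:**
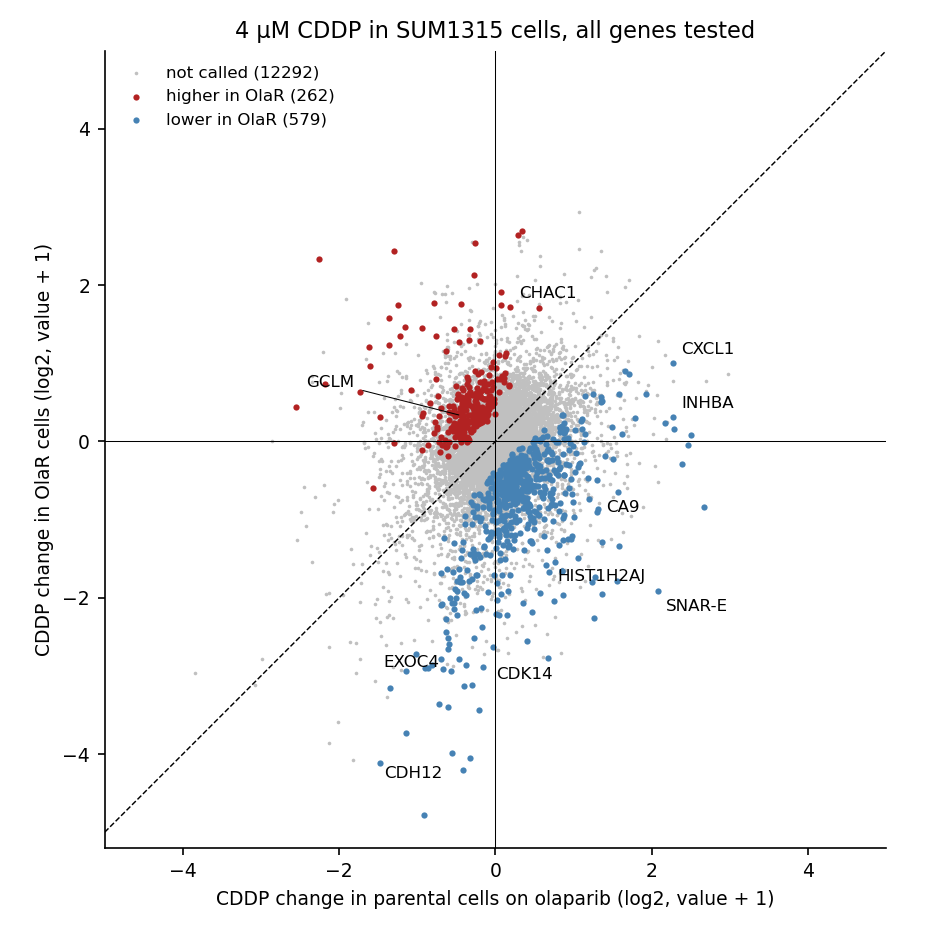
Each point is 1 of the 13133 genes tested, with the CDDP change in parental SUM1315 cells on olaparib on the x axis and that in OlaR cells on the y axis, both as log2 of the adjusted read count plus 1. Red points are the 262 genes called higher and blue points the 579 called lower, and genes on the dashed diagonal changed equally. INHBA and CXCL1 lie to the right of the diagonal, EXOC4 and CDK14 far below it and CHAC1 above it.

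Very long genes were lower far more often than higher. Among tested genes that span 300 kb or more, 127 were lower and 1 was higher (27.4% called, beside 6.4% of all genes), with a median difference of −0.65. In genes of 10 to 30 kb, 101 of 3606 were lower and 89 higher, with a median of 0.049. At 30 to 100 kb, 87 of 3994 were lower and 90 higher. Lower calls also outnumbered higher ones in other classes, with medians nearer to 0. They were 163 against 63 of 2944 under 10 kb (median −0.010) and 94 against 18 of 1900 at 100 to 300 kb (median −0.092). Within the long genes, 70 of 293 were lower at 300 to 500 kb, 48 of 143 at 500 to 1000 kb and 9 of 32 at 1000 kb and over. The median CDDP change of the long genes was −0.16 in parental cells on olaparib, where 12 rose and 45 fell. In OlaR cells it was −0.76, where 8 rose and 233 fell. Of the 127 genes that were lower, 116 fell in OlaR cells, while in parental cells on olaparib 18 fell, 9 rose and 100 were not called.

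EXOC4, which encodes a subunit of the exocyst complex that tethers secretory vesicles, spans 847.9 kb of chromosome 7 (133253078 to 134100951, GRCh38). Its adjusted counts were 243, 238 and 273 in parental cells on olaparib, 185, 164 and 195 with CDDP, 386, 349 and 318 in OlaR cells and 74.2, 33.2 and 50.7 in OlaR cells with CDDP. The OlaR libraries with CDDP were the lowest of the 12, and the groups did not overlap in either cell type. EXOC4 fell 6.87-fold in OlaR cells, and its mean was 1.39-fold lower in parental cells with CDDP, which was not called (limma adjusted p = 0.116). The difference was −2.31 ± 0.26 (SE, n = 3 libraries a group, log2), with a limma adjusted p of 9.85e-07.

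LPP, a focal adhesion scaffold protein gene of 737.7 kb on chromosome 3 (188153021 to 188890671), was at 570, 557 and 580 in parental cells on olaparib and at 428, 427 and 409 with CDDP. In OlaR cells it was at 507, 417 and 448, and at 146, 128 and 120 with CDDP. LPP thus fell in both, with no overlap between libraries, by 1.35-fold in parental and 3.47-fold in OlaR cells (difference −1.36 ± 0.16, limma adjusted p = 1.5e-06). CDK14, a cyclin-dependent kinase gene of 614.3 kb on chromosome 7, was at 134, 97 and 159 in parental cells and 102, 121 and 121 with CDDP, ranges that overlap. In OlaR cells CDK14 was at 182, 123 and 138 without and 29, 18 and 12.9 with CDDP, a 7.36-fold fall (difference −2.73 ± 0.35, limma adjusted p = 5.92e-06). BCAS3 (715 kb, chromosome 17), a cytoskeletal adaptor gene, fell 1.62-fold in parental and 6.91-fold in OlaR cells. HS6ST3 (749.5 kb, chromosome 13), a heparan sulfate sulfotransferase gene, fell 1.44-fold and 4.41-fold.

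Long genes that are known as common fragile sites were among them. Of 15 tested genes of a fragile site list, DPYD, EXOC4, IMMP2L and PTPRG were lower and none was higher (26.7% called). This share was near the 27.4% of all tested genes of 300 kb and over, beside 6.4% of all genes. DPYD, which encodes the enzyme that breaks down pyrimidines and spans 843.3 kb of chromosome 1, fell 5.21-fold in OlaR cells, from 73.3, 55.5 and 62.6 to 15.8, 12.2 and 7.51. In parental cells its counts of 196, 235 and 236 and of 174, 230 and 190 with CDDP overlapped. IMMP2L (899.8 kb, chromosome 7), a mitochondrial inner membrane peptidase gene, was at 130, 130 and 118 in OlaR cells and 16.7, 3.53 and 9.85 with CDDP, against 74.6, 93.4 and 76.9 and 37.7, 32.3 and 38.8 in parental cells. IMMP2L fell in both (difference −2.59 ± 0.50, limma adjusted p = 0.00129). The list's median difference of −0.097 changed with the reads behind it, being −0.78 over the 8 members with a mean log2 value of at least 5, −0.64 with edgeR and 0.17 without parental olaparib replicate 2, while 3 or 4 members were lower in each of these.

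Some long genes were close to the detection limit. CDH12, a cadherin gene of 1103 kb on chromosome 5, had 8, 15 and 23 reads in OlaR cells and 1, 0 and 0 with CDDP. Its adjusted counts in parental cells were 92.4, 92.6 and 115, and 72.5, 72.1 and 78.4 with CDDP. NRXN3, a synaptic adhesion gene of 1698 kb on chromosome 14, had 11, 11 and 7 reads in OlaR cells and 0 in all 3 OlaR libraries with CDDP. The semaphorin receptor gene PLXNA4 had 15, 15 and 19 reads in OlaR cells and also 0 in all 3 with CDDP. No fold is given for these, and both NRXN3 and PLXNA4 had at most 4 reads in every parental library of the comparison. Folds given above for other long genes also rest on few reads in OlaR cells with CDDP. There DPYD had 13, 9 and 4 reads, IMMP2L 14, 2 and 6, CDK14 24, 13 and 7 and BCAS3 16, 22 and 10, so the sizes of their falls are imprecise.

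The share of all reads that came from long genes shows the pattern by library. It was 1.437%, 1.424% and 1.48% in parental cells on olaparib and 1.415%, 1.483% and 1.475% when 4 µM CDDP was added, and these ranges overlap. In OlaR cells the share was 1.429%, 1.434% and 1.43% without CDDP and 1.081%, 1.062% and 1.097% with it. At 2 µM CDDP the OlaR libraries lay between, at 1.266%, 1.317% and 1.23%. The parental cells that received no olaparib supply a further reference. Their share was 1.754%, 1.72% and 1.744% untreated, 1.37%, 1.375% and 1.453% with 2 µM CDDP alone and 1.201%, 1.182% and 1.188% with 4 µM CDDP alone. With 4 µM CDDP alone, 293 long genes fell and 14 rose, beside 21.7% of all genes tested that fell and 22.2% that rose, and the median change of the long genes was −0.97. With olaparib alone their median change was −0.26, and 110 fell and 31 rose, beside 17.1% and 18.9% of all genes. Of the 127 long genes that were lower in OlaR cells, 105 fell with CDDP alone in parental cells. When the OlaR response was set against that of parental cells without olaparib, the median difference over the long genes was 0.15, with 59 higher and 40 lower, beside 11.6% and 14.2% of all genes.

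**Figure D2:**
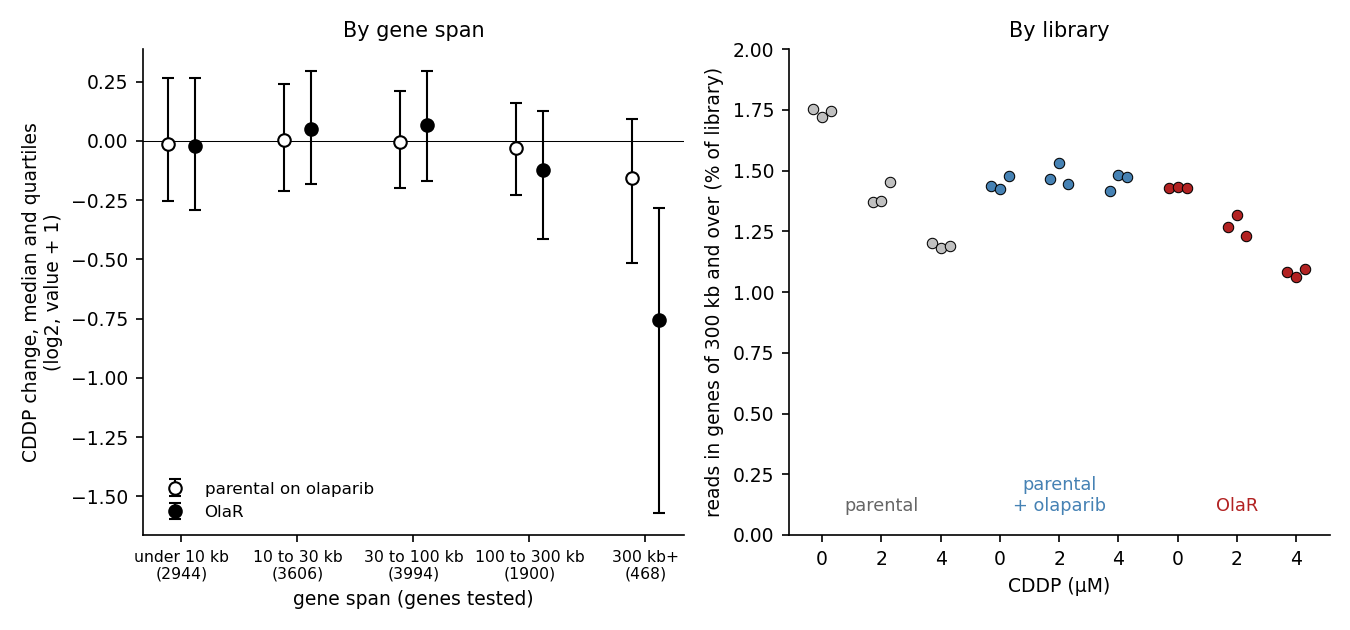
The left panel gives the median CDDP change with quartiles (log2 of the adjusted count plus 1) for genes of 5 span classes in parental cells on olaparib (open) and OlaR cells (filled), and only the genes of 300 kb and over lie well below 0 in OlaR cells, at −0.76. The right panel gives the percent of reads in those genes for each of the 27 SUM1315 libraries by CDDP dose in µM. It falls with dose in parental cells without olaparib and in OlaR cells, and stays between 1.415% and 1.533% in parental cells on olaparib.

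Inflammatory genes controlled by NF-kB rose with CDDP more often than they fell in both cell types, and those called in the comparison were lower with 1 exception. Of 44 tested NF-kB targets, 10 were lower and 1 was higher (25% called), with a median difference of −0.42. Their median CDDP change was 0.52 in parental cells on olaparib, where 24 rose and 1 fell, and 0.27 in OlaR cells, where 17 rose and 3 fell. CXCL1, a neutrophil-attracting chemokine gene on chromosome 4 (73869393 to 73871308), was at 314, 330 and 351 in parental cells and 1586, 1623 and 1606 with CDDP. In OlaR cells CXCL1 was at 1170, 1089 and 1093 without and 2400, 2255 and 2097 with CDDP. All CDDP libraries lay above their controls, and OlaR cells without CDDP already lay above parental cells. CXCL1 rose 4.84-fold in parental and 2.01-fold in OlaR cells (difference −1.27 ± 0.16, limma adjusted p = 4.15e-06). In counts the mean increase was 1274 in parental and 1133 in OlaR cells, so the smaller fold in OlaR cells came with a similar increase in counts.

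CXCL8, which encodes interleukin 8, was at 1601, 1710 and 1181 in parental cells, 6744, 5603 and 4735 with CDDP, 7430, 6569 and 8095 in OlaR cells and 12265, 10931 and 10292 with CDDP. It rose 3.81-fold and 1.52-fold (difference −1.33 ± 0.21, limma adjusted p = 0.000102), from a level 4.96-fold higher in OlaR cells, and its mean increase in counts was 4197 and 3798. PTGS2, the gene of the prostaglandin-forming enzyme COX-2, was at 2065, 2149 and 1668 and rose to 4812, 4664 and 5528 in parental cells. In OlaR cells PTGS2 rose from 2471, 2598 and 2452 to 3440, 3764 and 3504 (difference −0.85 ± 0.13, limma adjusted p = 6.33e-05). For PTGS2 the starting levels were 1.29-fold apart, and the increase in counts was 3041 against 1062. The other members that were lower were the chemokine genes CXCL3 and CX3CL1, the pathway inhibitors TNFAIP3 and TNIP1, the adhesion gene ICAM1, BCL3 and CSF3, and the superoxide dismutase gene SOD2 was higher. BIRC3, an inhibitor of apoptosis named in the study, was at 404, 450 and 491 in parental cells, 1270, 1310 and 1257 with CDDP, 242, 344 and 244 in OlaR cells and 676, 526 and 506 with CDDP. It rose 2.86-fold and 2.06-fold, and the difference of −0.47 ± 0.18 was not called (limma adjusted p = 0.108). For the adaptor gene TRAF1 the folds were 4.5 and 2.14, with adjusted p = 0.184 for the difference, and for the chemokine gene CCL20 they were 2.67 and 2.57, with adjusted p = 0.961.

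CXCL1 and BIRC3 are shown by the 250 bases upstream of their start, the first as the member with the smallest p and the second as a member whose difference was not called. Both windows hold the letters GGGANTT, the core of an NF-kB binding site, searched on both strands and printed in capitals. They were read from RefSeq GRCh38.p14 and lie on the plus strand at chr4:73869143-73869392 and chr11:102317234-102317483. Of 7309 tested genes with a promoter in that table, 15.8% hold these letters, so a match is common and describes the window alone.
CXCL1: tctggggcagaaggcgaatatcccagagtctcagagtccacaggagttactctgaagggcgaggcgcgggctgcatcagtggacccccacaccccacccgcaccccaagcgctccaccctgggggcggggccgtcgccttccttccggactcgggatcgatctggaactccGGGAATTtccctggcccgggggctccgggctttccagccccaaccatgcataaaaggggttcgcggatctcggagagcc
BIRC3: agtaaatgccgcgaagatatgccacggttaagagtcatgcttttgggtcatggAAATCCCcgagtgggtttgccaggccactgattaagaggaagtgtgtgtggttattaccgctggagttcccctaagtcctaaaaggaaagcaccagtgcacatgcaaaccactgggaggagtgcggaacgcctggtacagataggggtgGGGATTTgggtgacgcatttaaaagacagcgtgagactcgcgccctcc

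The difference of INHBA had the smallest p of all genes, together with that of SNAR-E. INHBA encodes the activin A subunit, a ligand of the TGF-beta family, and lies on chromosome 7 (41685114 to 41705406). It was at 54.2, 59.1 and 43 in parental cells on olaparib and 217, 278 and 269 with CDDP. In OlaR cells it was at 1359, 1321 and 1346, and at 1766, 1672 and 1578 with CDDP. The CDDP libraries lay above their controls in both, and every OlaR library lay above every parental library. INHBA rose 4.83-fold in parental cells, and its 1.24-fold change in OlaR cells was not called (limma adjusted p = 0.0736), giving a difference of −1.96 ± 0.17 with an adjusted p of 5.37e-09. In counts the mean change was 203 in parental and 330 in OlaR cells, from a level 25.5-fold higher in OlaR cells, so the order of the responses turns with the scale. Of 21 tested TGF-beta, BMP and ID genes, INHBA and PMEPA1 were lower and none was higher. This share of 9.52% called was near the 6.4% of all genes. PMEPA1, a feedback inhibitor of TGF-beta signalling, fell 1.4-fold in OlaR cells, from 1364, 1301 and 1209 to 925, 902 and 943, while its parental ranges overlapped.

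Feedback genes of the MAPK pathway, which MAPK signalling induces and which then restrain it, were lower where they were called. Of 22 tested, 6 were lower and none was higher (27.3% called), with a median difference of −0.51. In parental cells 8 rose and none fell, and in OlaR cells none rose and 3 fell. SPRY2, a Sprouty inhibitor of receptor tyrosine kinase signalling on chromosome 13, was at 79.2, 98.3 and 91.9 in parental cells and 160, 189 and 184 with CDDP. In OlaR cells SPRY2 was at 165, 195 and 191 without and 138, 113 and 96.5 with CDDP. The libraries of the OlaR group with CDDP lay below all their controls, and those of the parental group with CDDP above all theirs. SPRY2 rose 1.97-fold and fell 1.59-fold (difference −1.65 ± 0.24, limma adjusted p = 4.68e-05). DUSP4, a phosphatase of ERK and JNK, rose 1.38-fold in parental cells, from 853, 861 and 744 to 1164, 1124 and 1103, and fell 1.27-fold in OlaR cells, from 1826, 1690 and 1582 to 1282, 1401 and 1321 (difference −0.81 ± 0.12, limma adjusted p = 4.25e-05). PHLDA1 rose 1.77-fold in parental cells, and its 1.09-fold change in OlaR cells was not called. DUSP1, DUSP5 and the ETS factor gene ETV4 were the other members that were lower.

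Among 25 tested AP-1 and immediate early genes, 6 were lower and none was higher (24% called), with a median difference of −0.31. JUN, the AP-1 subunit, rose 1.77-fold in parental cells, from 533, 512 and 391 to 811, 807 and 910. In OlaR cells JUN was at 1190, 1116 and 1260 and at 1295, 1418 and 1331 with CDDP, a 1.13-fold change that was not called (difference −0.64 ± 0.15, limma adjusted p = 0.0067). EGR1, a zinc finger factor of the early growth response, had overlapping parental ranges of 1470, 1511 and 1215 and of 1395, 1301 and 1326 with CDDP. In OlaR cells EGR1 was 23.6-fold lower before CDDP and fell from 56.4, 64.6 and 53.5 to 27.2, 23.4 and 25.9 (difference −1.10 ± 0.19, limma adjusted p = 0.000436, but 0.166 by voom). Without 1 library in turn, 3 to 5 members were lower, with 3 in 6 of the 12 fits, those without OlaR replicate 2 or 3, OlaR and CDDP replicate 2, or any 1 of the parental olaparib and CDDP replicates. JUND fell in OlaR cells, from 2970, 2760 and 2834 to 1499, 2209 and 1945. DUSP1, which is also in the MAPK list, FOSL2 and KLF6 were the others.

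Replication genes rose more often than they fell with CDDP in both cell types, and 13 of 47 tested E2F and replication genes were lower against 1 higher (29.8% called), with a median difference of −0.21. In parental cells 31 rose and none fell, with a median change of 0.63, and in OlaR cells 21 rose and 1 fell, with a median of 0.38. Without OlaR replicate 2, 8 were lower. CHAF1A, a subunit of the chromatin assembly factor that deposits histones behind the fork, rose 2.03-fold in parental cells, from 220, 191 and 263 to 466, 469 and 427. In OlaR cells CHAF1A was at 624, 578 and 552, and at 616, 599 and 735 with CDDP, ranges that overlap (difference −0.88 ± 0.18, limma adjusted p = 0.00229). POLD1, the catalytic subunit gene of DNA polymerase delta, rose 1.55-fold in parental cells, from 115, 120 and 122 to 190, 164 and 203, and fell 1.39-fold in OlaR cells, from 244, 213 and 268 to 161, 184 and 175 (difference −1.11 ± 0.21, limma adjusted p = 0.00118). TK1, the thymidine kinase gene, rose 1.57-fold in parental cells, from 427, 398 and 395 to 636, 682 and 598, while its OlaR ranges of 719, 678 and 622 and of 708, 600 and 670 overlapped. CDC6 and DTL rose in both and were lower in OlaR cells, with differences of −0.56 and −0.76. FAM111B, a replication-linked protease gene, was the member that was higher, with a change of 0.56 in parental cells that was not called and of 1.71 in OlaR cells.

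Replication-dependent histone genes supply the histones of newly made chromatin and were lower where they were called. Of 26 tested clustered histone genes among 73 in the table, 4 were lower and none was higher. This was 15.4% called, beside 6.4% of all genes, with a median difference of −1.06. Only 2 were lower without parental olaparib and CDDP replicate 2 or 3, and the call of HIST1H1E was lost in 3 of 12 fits without 1 library and when genes with low values were kept in the fit. HIST1H4C, a histone H4 gene (H4C3 in RefSeq) on chromosome 6 (26103933 to 26104337), was at 7192, 6440 and 5699 in parental cells and 10240, 8484 and 9601 with CDDP. In OlaR cells HIST1H4C was at 12676, 12568 and 12229, and at 5609, 6789 and 7154 with CDDP. No range overlapped its control, and the direction was opposite. HIST1H4C rose 1.47-fold and fell 1.93-fold (difference −1.50 ± 0.16, limma adjusted p = 3.11e-07). HIST1H2AJ, an H2A gene, fell 3.19-fold in OlaR cells, from 122, 106 and 87 to 24.3, 41 and 32.4, and its parental change of 1.61-fold was not called. HIST1H1E and HIST1H2AM were the other members that were lower. H1F0, the linker histone H1.0 gene, which lies outside the clusters, rose 1.29-fold in parental cells, from 1465, 1458 and 1168 to 1776, 1747 and 1749, and fell 1.78-fold in OlaR cells, from 1323, 1196 and 1303 to 699, 761 and 689. Clustered histone transcripts mostly lack the poly(A) tail that the libraries were primed on, and near-identical copies can share reads, so these values are uncertain. The share of reads in histone genes was 0.130% to 0.151% in parental cells on olaparib and 0.187% to 0.215% with CDDP. In OlaR cells it was 0.2398% to 0.2503%, and 0.120% to 0.153% with CDDP.

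Small nuclear and nucleolar RNAs, which also lack a poly(A) tail, were also lower where they were called. Of 77 tested snoRNAs, 17 were lower and none was higher (22.1% called), and of 16 snRNAs, 5 were lower and none was higher (31.2% called). Their share of reads was 0.177% to 0.207% in parental cells and 0.239% to 0.337% with CDDP, against 0.361% to 0.395% and 0.215% to 0.253% in OlaR cells. SNAR-E, a small NF90-associated RNA gene on chromosome 19 with near-identical copies, was at 112, 85.9 and 155 in parental cells and 502, 441 and 514 with CDDP. In OlaR cells SNAR-E was at 2130, 1883 and 1674, and at 413, 491 and 624 with CDDP. It rose 4.22-fold and fell 3.75-fold (difference −3.98 ± 0.35, limma adjusted p = 5.37e-09). The part that RNA without a poly(A) tail had in the other results was not tested. SMOC1, which encodes a secreted matrix protein, also rose in parental cells, from 1887, 2110 and 1541 to 2215, 2669 and 2933, and fell in OlaR cells, from 3482, 3499 and 3503 to 1630, 2092 and 1968 (difference −1.39 ± 0.16, limma adjusted p = 7.92e-07).

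**Figure D3:**
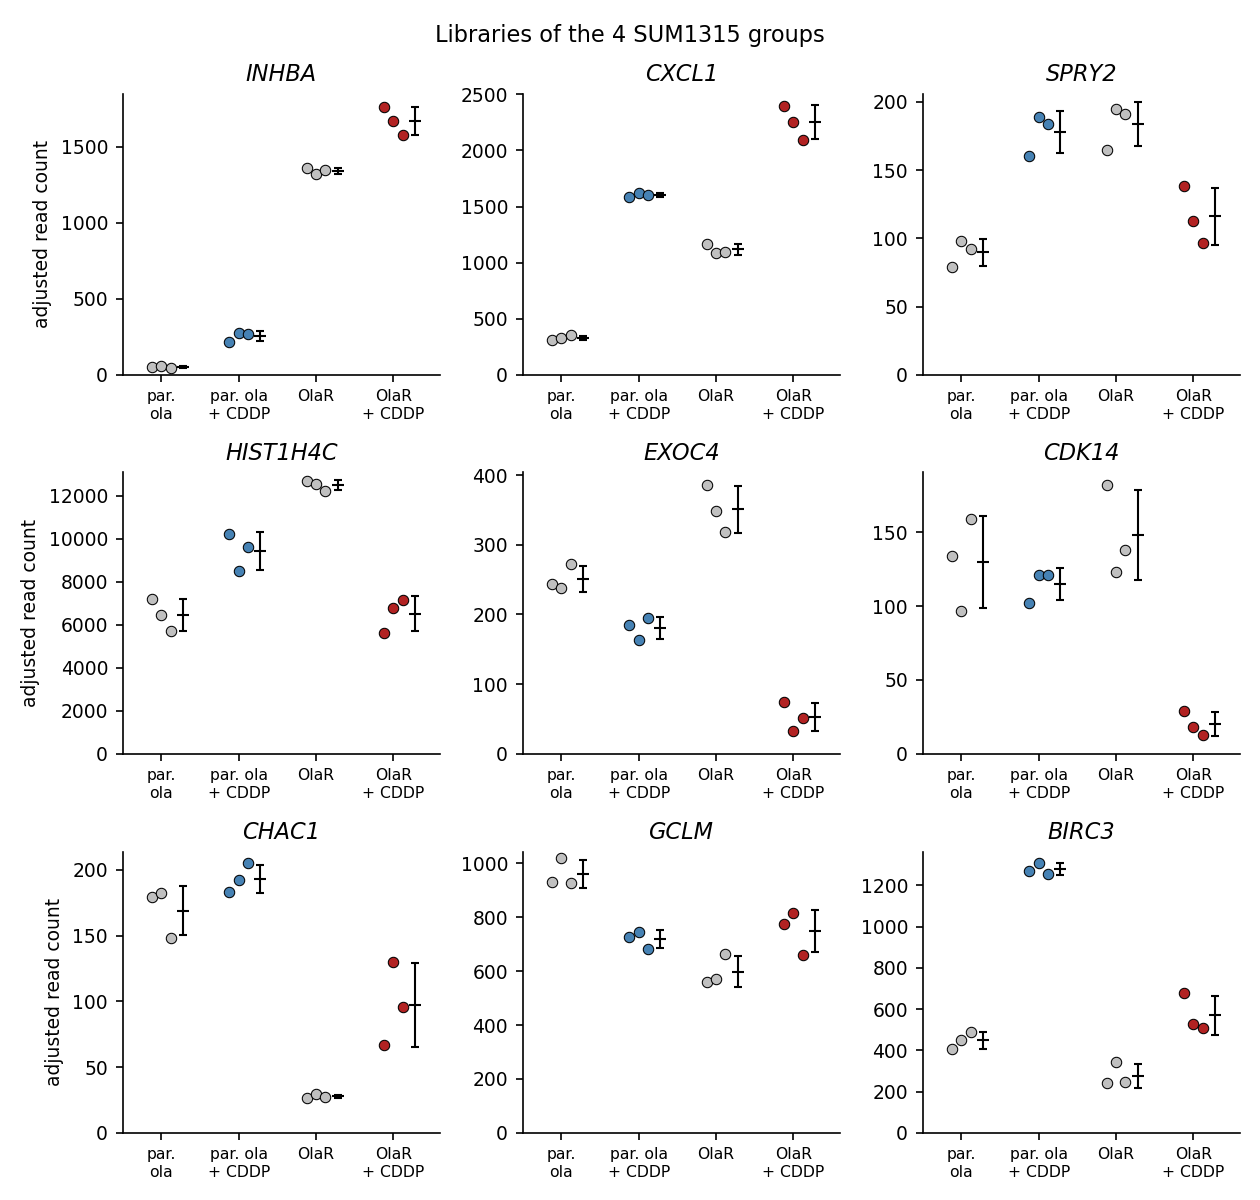
Adjusted read counts of 9 genes in the 12 SUM1315 libraries (par. ola, parental cells on olaparib), each point 1 library and each bar the mean ± SD of 3, with axes that start at 0. SPRY2 and HIST1H4C rise with CDDP in parental cells and fall in OlaR cells, EXOC4 and CDK14 fall to under 75 in OlaR cells, and INHBA starts 25.5-fold higher in OlaR cells.

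Antioxidant genes were higher where they were called, with 1 exception. NRF2 binds to antioxidant response elements and drives genes of glutathione, thioredoxin and NADPH metabolism. Of 25 tested NRF2 and metallothionein genes, 10 were higher and 1 was lower (44% called), with a median difference of 0.44. In parental cells 11 fell and none rose, with a median change of −0.28, and in OlaR cells 7 rose and 4 fell, with a median of 0.13. GCLM, the modifier subunit gene of the rate-limiting enzyme of glutathione synthesis, lies on chromosome 1 (93885199 to 93909430). It was at 932, 1020 and 926 in parental cells and 728, 745 and 681 with CDDP, and at 559, 569 and 663 in OlaR cells and 774, 814 and 660 with CDDP. The parental groups did not overlap, and in OlaR cells 1 library with CDDP lay within the range of the controls. GCLM fell 1.34-fold and rose 1.25-fold (difference 0.74 ± 0.13, limma adjusted p = 0.000392).

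TALDO1, the transaldolase gene of the pentose phosphate pathway, fell 1.46-fold in parental cells, from 1398, 1414 and 1530 to 1026, 965 and 986. In OlaR cells TALDO1 was at 1467, 1334 and 1339, and at 1481, 1550 and 1523 with CDDP, a change that was not called (difference 0.68 ± 0.12, limma adjusted p = 0.000568). AKR1C3, an aldo-keto reductase gene, fell 1.41-fold in parental cells, from 914, 1050 and 898 to 761, 640 and 627, and its mean of 395 ± 7.85 in OlaR cells was 461 ± 10.5 with CDDP (SD, n = 3), which was not called. AKR1C1 and AKR1C2, whose sequences are close to that of AKR1C3 so that reads may be shared, were also higher, as were the NADPH-forming PGD, the thioredoxin reductase gene TXNRD1, SRXN1 and OSGIN1. SLC7A11, the cystine importer gene, was at 1877, 2005 and 1704 in parental cells and fell to 1380, 1240 and 1398, whereas in OlaR cells it rose from 638, 655 and 700 to 866, 949 and 764 (difference 0.84 ± 0.17, limma adjusted p = 0.0018). The metallothionein gene MT1X was the member that was lower, with a change of −0.28 in parental and −0.91 in OlaR cells. Without 1 library in turn, 5 to 10 members were higher, with 5 without OlaR replicate 2 and 6 without parental olaparib replicate 2 or parental olaparib and CDDP replicate 3, and the median difference was 0.39 to 0.49.

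The ATF4 list, genes of amino acid transport and stress, held calls in both directions, with 4 of 26 tested higher and 4 lower (30.8% called) and a median difference of 0.16. In each fit without 1 library 3 or 4 were higher and 2 or 3 lower. The 2 lower came from 9 of these 12 fits, the others being those without OlaR replicate 2, OlaR and CDDP replicate 3 or parental olaparib replicate 2. CHAC1 on chromosome 15 (40953471 to 40956512) was at 179, 182 and 148 in parental cells on olaparib and 183, 192 and 205 with CDDP. In OlaR cells CHAC1 was at 26.7, 29.2 and 27.3, and at 66.4, 130 and 95.8 with CDDP. The CDDP libraries lay above their controls in both, and every OlaR library lay below every parental library. CHAC1 rose 3.31-fold in OlaR cells and its 1.14-fold change in parental cells was not called (difference 1.53 ± 0.25, limma adjusted p = 0.00021). The mean level was 547 in untreated parental cells and 261 with 4 µM CDDP alone, where it fell. SLC7A5, the large neutral amino acid transporter gene, fell 2.05-fold in OlaR cells, from 2018, 2086 and 2010 to 862, 1152 and 986, while its parental ranges of 2336, 2399 and 1778 and of 2453, 2344 and 2653 overlapped (difference −1.24 ± 0.18, limma adjusted p = 3.41e-05). CTH, PCK2 and SLC7A11, which is in both lists, were also higher, and DDIT3, PPP1R15A and STC2 lower. DDIT3 and PPP1R15A rose in both cell types, by 1.58 and 1.26 on the log2 scale in parental and by 0.60 and 0.60 in OlaR cells.

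GCLM and CHAC1 are shown by the 250 bases upstream of their start as the genes that were higher with the smallest p in the antioxidant and the ATF4 list. The capitals in GCLM mark the antioxidant response core TGACNNNGC and those in CHAC1 the letters TTGCATC of an ATF4 element, both searched on both strands. GCLM lies on the minus strand at chr1:93909431-93909680 and CHAC1 on the plus strand at chr15:40953221-40953470 of GRCh38.p14 (RefSeq). Of the 7309 promoters, 12.5% hold the first set of letters and 1.3% the second. Whether genes called in the comparison hold them more often could not be checked, since the table has a promoter for 59.5% of those that were higher and 49.9% of those that were lower, and the check is void under 80%.
GCLM: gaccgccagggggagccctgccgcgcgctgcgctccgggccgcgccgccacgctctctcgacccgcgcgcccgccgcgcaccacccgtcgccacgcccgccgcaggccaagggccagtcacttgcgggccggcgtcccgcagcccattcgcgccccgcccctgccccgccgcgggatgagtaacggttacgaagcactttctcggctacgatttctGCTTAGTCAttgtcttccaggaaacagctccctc
CHAC1: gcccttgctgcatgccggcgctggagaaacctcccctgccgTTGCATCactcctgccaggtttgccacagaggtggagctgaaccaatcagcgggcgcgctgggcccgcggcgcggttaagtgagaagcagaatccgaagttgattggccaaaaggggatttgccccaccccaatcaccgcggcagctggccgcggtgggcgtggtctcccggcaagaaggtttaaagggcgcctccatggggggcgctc

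Outside these lists, the genes that were higher with the smallest p included the long noncoding RNA NEAT1, the scaffold of paraspeckles. NEAT1 was at 4022, 4318 and 4203 in parental cells on olaparib and fell to 1972, 2229 and 2341 with CDDP. In OlaR cells it was at 2344, 2485 and 2439, and at 2184, 2289 and 2239 with CDDP, a change that was not called (limma adjusted p = 0.399). The difference was 0.83 ± 0.12 (adjusted p = 4.25e-05). APPL1, an endosomal adaptor gene, fell 1.79-fold in parental cells, from 147, 151 and 117 to 62.5, 93.5 and 75.6, and rose 1.41-fold in OlaR cells, from 377, 346 and 406 to 516, 506 and 563. RB1CC1, which encodes an autophagy initiation factor, rose 1.8-fold in OlaR cells, from 574, 557 and 542 to 1220, 897 and 930, with overlapping parental ranges. OPA1, the mitochondrial fusion GTPase gene, fell 1.34-fold in parental and rose 1.24-fold in OlaR cells. RBM41 and ERGIC2 rose 1.87-fold and 1.71-fold in OlaR cells and were not called in parental cells. HSPA8, the constitutive HSC70 chaperone gene, fell 1.49-fold in parental cells, from 2317, 2360 and 2722 to 1579, 1701 and 1681, and was not called in OlaR cells, at 2266, 2194 and 2379 and at 2729, 2584 and 2380 with CDDP. The largest differences in log2 among genes that were higher belonged to transcripts with few reads, MAP6D1, HNRNPKP3, LINC00621 and DKFZP434I0714, and MAP6D1 was at 12.2, 13.8 and 8.99 in parental cells and 4.98, 0.628 and 0.843 with CDDP. In OlaR cells MAP6D1 was at 0.107, 0.13 and 2.77, and at 7.52, 4.56 and 11.9 with CDDP.

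DNA repair lists had shares of called genes near or below that of all genes. None of 26 tested base excision repair and PARP genes was called by limma, voom, edgeR or DESeq2, beside 6.4% of all genes, and 5 had an unadjusted limma p under 0.05. PARP1, the target of olaparib, was at 1394, 1329 and 1277 in parental cells, 1534, 1506 and 1488 with CDDP, 1781, 1829 and 1680 in OlaR cells and 1909, 1800 and 1737 with CDDP. Its difference of −0.14 ± 0.12 was not called (limma adjusted p = 0.572). Of 36 homologous recombination and Fanconi genes, 2 were lower (5.56% called), or 4 without parental olaparib and CDDP replicate 1. FANCD2, the Fanconi protein that is ubiquitinated at crosslinks, rose 1.58-fold in parental cells, from 237, 264 and 286 to 412, 438 and 395, while its OlaR ranges of 460, 574 and 508 and of 472, 430 and 403 overlapped (difference −0.90 ± 0.16, limma adjusted p = 0.000515). FANCC, of the core complex, fell 2.25-fold in OlaR cells, from 69, 77.2 and 70.6 to 36.9, 31.3 and 27. BRCA1 rose in both, 1.96-fold in parental cells, from 206, 236 and 257 to 361, 501 and 527, and 1.46-fold in OlaR cells, from 344, 336 and 356 to 461, 515 and 537. Its difference of −0.43 ± 0.19 was not called (limma adjusted p = 0.172). RAD51AP1 rose 1.56-fold and 1.66-fold, with a difference of 0.089 ± 0.20. POLH, which encodes the translesion polymerase eta, had overlapping ranges in both cell types. Of 28 nucleotide excision repair and translesion genes, LIG1 and GTF2H4 were lower (7.14% called). The DNA ligase gene LIG1 rose 1.75-fold in parental cells, from 151, 146 and 110 to 210, 261 and 240, and was at 224, 225 and 216 in OlaR cells and 160, 205 and 162 with CDDP.

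Of 27 p53 targets, 2 were lower and none was higher (7.41% called), a share near the 6.4% of all genes. The study states that the TNBC lines it used all express mutant p53. GDF15, a stress cytokine gene, rose 2.15-fold in parental cells, from 1455, 1527 and 1415 to 2902, 3156 and 3435. In OlaR cells GDF15 was at 2264, 2345 and 2219, and at 2348, 2731 and 2580 with CDDP, a change that was not called (difference −0.94 ± 0.13, limma adjusted p = 2.72e-05). BAX, the pro-apoptotic BCL2 family member, fell 1.8-fold in OlaR cells, from 315, 317 and 283 to 144, 192 and 174, and was at 169, 183 and 174 and 246, 236 and 199 in parental cells, where it was not called. Of 30 BCL2 family and death receptor genes, 4 were lower and 1 was higher (16.7% called). TNFRSF12A, the TWEAK receptor gene, rose 1.92-fold in parental cells, from 339, 356 and 285 to 665, 679 and 538, and was at 640, 599 and 590 in OlaR cells and 452, 465 and 568 with CDDP. The anti-apoptotic BCL2L1 fell 1.77-fold in OlaR cells, from 1042, 909 and 897 to 533, 534 and 537, and its parental ranges overlapped. TNFRSF21 was also lower and the decoy receptor gene TNFRSF10D higher.

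The remaining lists held 5 calls or fewer each. Of 37 G2/M genes, CENPF, ASPM and KIF20A were higher and TPX2 and CKS2 lower (13.5% called, beside 6.4% of all genes), with a median difference of 0.0018. The count of 3 higher was 0 without parental olaparib and CDDP replicate 1 and 1 without parental olaparib replicate 3. CENPF fell 1.39-fold in parental cells, from 3112, 3140 and 3815 to 1985, 2627 and 2650, and KIF20A fell in both. TPX2 and CKS2 fell 1.24-fold and 1.53-fold in OlaR cells. Of 37 interferon-stimulated genes, DDX58 and BST2 were lower (5.41% called), and the RNA sensor gene DDX58 rose in both, 1.81-fold and 1.27-fold. Of 24 heat shock genes, HSPA8 and DNAJA1 were higher and the endoplasmic reticulum chaperone gene HSPA5 lower (12.5% called). Of 26 hypoxia genes, KDM3A and HK2 were higher and VEGFA and CA9 lower (15.4% called). None of 24 cholesterol synthesis and SREBP2 targets was called by limma, voom, edgeR or DESeq2, and 5 had an unadjusted limma p under 0.05. The calls of BST2, HSPA5, DNAJA1, CA9 and KDM3A were lost without 1 library in 9, 7, 11, 4 and 2 of 12 fits, and that of DDX58 was lost with voom (adjusted p = 0.0739).

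**Figure D4:**
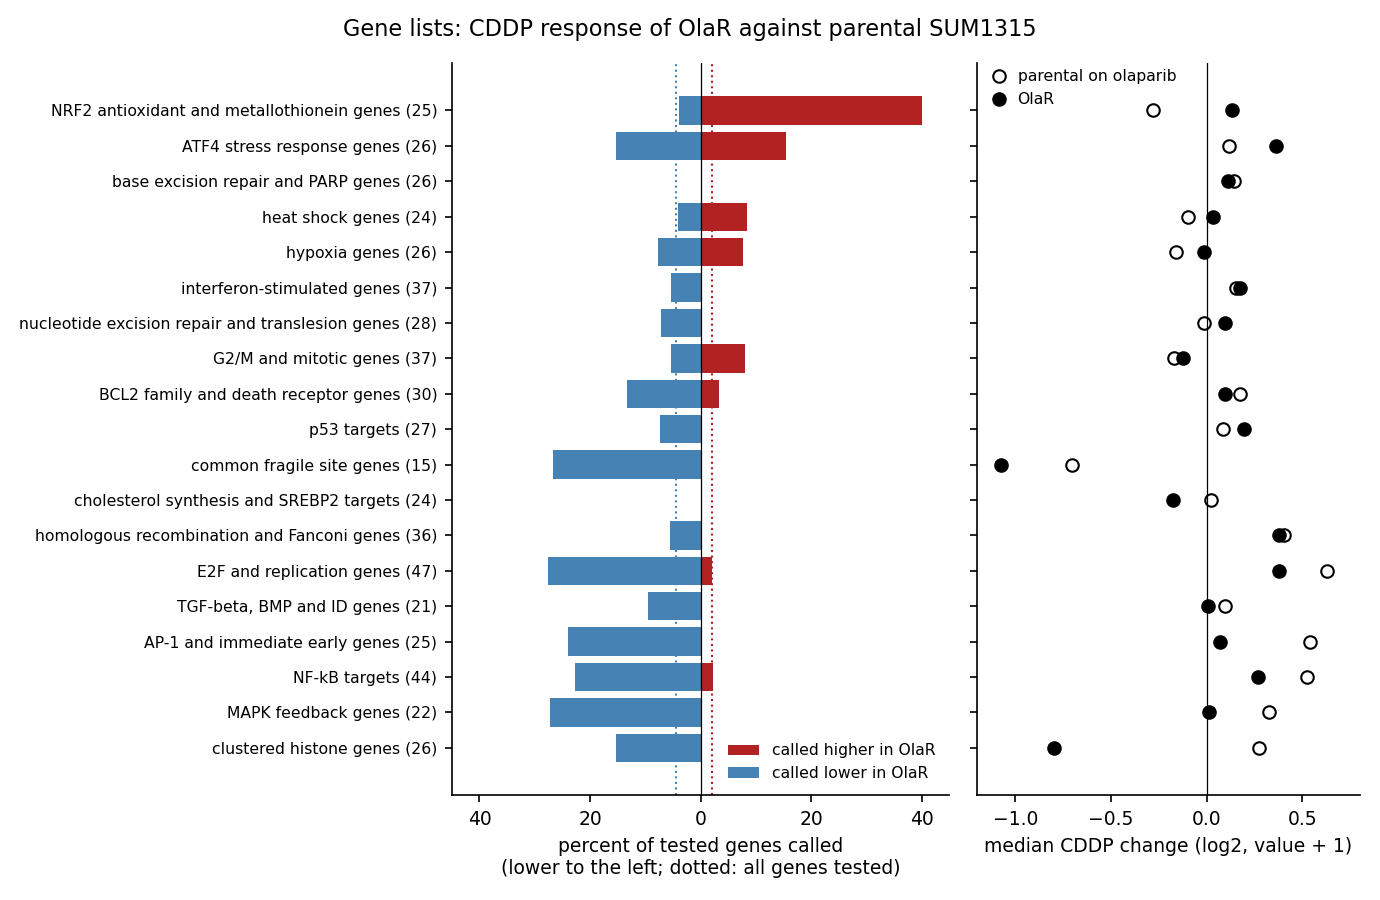
For each of 19 gene lists (number tested in brackets), the left panel gives the percent of tested genes called higher (red, to the right) or lower (blue, to the left), with dotted lines for all genes tested, and the right panel the median CDDP change in log2 in parental cells on olaparib (open) and OlaR cells (filled). Antioxidant genes have the largest percent called higher and E2F and replication genes, MAPK feedback genes and common fragile site genes the largest percents called lower.

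At 2 µM CDDP the same comparison called 181 genes (1.38%), 70 higher (0.533%) and 111 lower (0.845%), and it shares its control libraries with the comparison at 4 µM. The count rested on single libraries, with 40 without parental olaparib replicate 2, and it moved by over 1.5 times in 11 of 12 fits without 1 library, the exception being parental olaparib replicate 3, at 204. HIST1H4C differed by −1.51 at 2 µM and −1.50 at 4 µM, SNAR-E by −2.76 and −3.98, and NEAT1 by 0.93 and 0.83, each with a call at both doses. For EXOC4 the differences were −0.83, not called, and −2.31. INHBA differed by −0.49, not called, and −1.96. CXCL1 differed by −0.028, not called, and −1.27, with mean levels of 331, 656 and 1605 in parental cells at 0, 2 and 4 µM and of 1117, 2166 and 2251 in OlaR cells. The NF-kB list as a whole had a median of 0.0067 at 2 µM and −0.42 at 4 µM. No gene of the MAPK feedback or AP-1 list was called at 2 µM, with medians of −0.0032 and 0.10. The E2F and replication list had 2 genes lower, the histone list 5 lower and the antioxidant list 2 higher. Of 37 G2/M genes, 6 were lower and none was higher at 2 µM, with a median of −0.34, beside 0.0018 at 4 µM.

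Parental cells without olaparib gave another reference. Against parental cells treated with CDDP alone and untreated cells, 3385 genes (25.8%) differed, and this comparison shares its OlaR libraries with the main one. Among the genes named here the sign turned, with a call, for GDF15 (0.85, beside −0.94), PMEPA1 (0.65, beside −0.53) and BCL2L1 (0.71, beside −0.86). Others lost their call against this reference, among them JUN, TNFRSF12A, SLC7A5, SMOC1 and CXCL8 (−0.48, limma adjusted p = 0.0822). The antioxidant genes GCLM (0.32, limma adjusted p = 0.0678), AKR1C3 (0.32, 0.0735) and TALDO1 (−0.033, 0.871) lost it too. SLC7A11 kept its call, at 0.45 (limma adjusted p = 0.0464). Sign and call were kept by INHBA (−1.23), CXCL1 (−1.72), HIST1H4C (−1.705), CHAC1 (2.79) and NEAT1 (2.68), among others. EXOC4 fell in parental cells with 4 µM CDDP alone, from a mean of 399 to 49.5, close to the 52.7 of OlaR cells with CDDP, and its difference was 0.21, which was not called. LPP fell from 894 to 197 with CDDP alone. CXCL1 rose from 577 to 3743 with CDDP alone, a change of 2.73 in log2 beside 2.27 in parental cells on olaparib and 1.01 in OlaR cells. Olaparib alone lowered CXCL1 by 0.77, INHBA by 2.23 and CHAC1 by 1.69 in log2, and raised GCLM by 0.34. GCLM did not pass with CDDP alone (0.0081, limma adjusted p = 0.954).

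MDA-MB-468, a BRCA1 wild-type TNBC line treated with 3 µM olaparib in parental and 15 µM in OlaR cells and with 2.5 µM CDDP, gave the same comparison in libraries that share none with SUM1315. There 1958 of 13012 genes (15%) differed, 986 higher (7.58%) and 972 lower (7.47%). Of 11755 genes tested in both lines, 767 were called in SUM1315 and 1877 in MDA-MB-468, which is 16% of those tested. Both lines called 265, which is 34.6% of the SUM1315 calls and 14.1% of the MDA-MB-468 calls, with 67 higher in both, 179 lower in both and 19 opposite. Long genes were lower in MDA-MB-468 too, 151 of 391 tested against 1 higher, with a median difference of −0.66, and the median CDDP change was −0.15 in parental cells and −0.81 in OlaR cells. EXOC4 differed by −1.36, LPP by −1.23 and HIST1H4C by −0.80 in MDA-MB-468, all called. The difference between the lines was itself called for 161 of 14460 genes (1.11%), 76 higher (0.526%) and 85 lower (0.588%) in SUM1315. CHAC1 was higher in SUM1315 and lower in MDA-MB-468, by −2.34 (difference between lines 3.87, limma adjusted p = 4.03e-12), and the ATF4 list in MDA-MB-468 had 19 of 26 genes lower and none higher. SLC7A11 and SPRY2 also differed between the lines, by 2.94 and −1.76. The difference between lines was not called for EXOC4, LPP and GCLM.

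**Figure D5:**
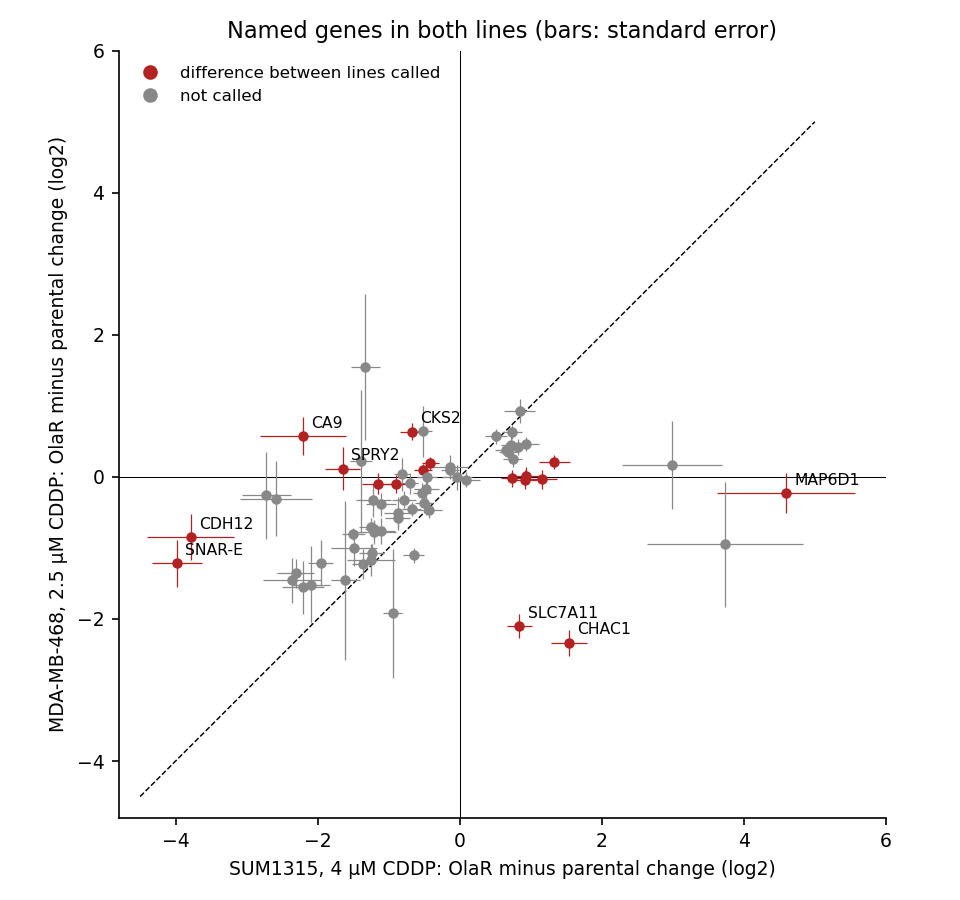
For the named genes tested in both lines, the x axis gives the OlaR minus parental CDDP change in SUM1315 (4 µM) and the y axis that in MDA-MB-468 (2.5 µM), in log2 with standard errors, and the dashed line marks equal values. Red points are genes whose difference between lines was called, among them CHAC1 at 1.53 and −2.34.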

How the data were processed

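Libraries primed on the poly(A) tail, which place 1 read near the 3′ end of a transcript, were made from 54 samples, 27 of each line, and 12 SUM1315 libraries enter the main comparison. Per the submitters' processing notes the tools were CASAVA 1.8.2, FastQC, STAR, HTSeq and edgeR with build hg38, and other versions are not given in the sources used here. The deposited values are a signal, edgeR adjusted read counts that the authors brought to a common library size within each of 18 conditions, for 27470 genes. Inverting that adjustment returned whole reads for 100% of values within 0.1. The precision of a value rests on these reads, and precision is lower in OlaR cells.

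Log2 of the value plus 1 was fitted with limma 3.58.1 (trend, R 4.3.3) over the 27 libraries of a line, for genes at 10 or more in at least 3 libraries, with Benjamini-Hochberg adjustment over all genes tested and a threshold of 0.05 without a fold limit. The model was tested on simulated data. Alternatives used other pseudocounts, filters, scalings and fits, and voom, edgeR 4.0.16 and DESeq2 1.42.0 on the recovered reads. Genes were named by these rules: the 12 smallest p in each direction at a mean log2 of at least 5, the 4 largest differences in each direction, up to 3 called genes of each of 20 lists, up to 6 genes called in opposite directions, and 8 genes that the study measures or names. Other called list members are named to complete a count and were chosen after their values were seen, as were the antioxidant motif and the contrasts of olaparib or CDDP alone. The members and lists were chosen with earlier results of these data known. Of the lists, mitochondrially encoded transcripts had 0 rows in the table. Gene spans and promoters came from RefSeq GRCh38.p14, with a span for 12912 of the 13133 genes tested, and 27 rows named as dates and 2 repeated names were not named. Same-numbered libraries did not deviate together (correlations −0.070 to 0.031 over 18 pairs), so the replicate number was not used as a block. Replicates of a group correlated at 0.9714 to 0.9767 and differed by more than sampling noise.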

Additional observations from a re-analysis of the deposited data

Results flagged for a closer look

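The difference of the CDDP response between OlaR and parental SUM1315 cells was itself tested and called for 841 genes, and 41 of these had called CDDP changes of opposite sign in the parental and OlaR cells. The difference of this comparison between SUM1315 and MDA-MB-468 was called for 161 genes. Among the genes named above, the difference between lines on the log2 scale (SUM1315 minus MDA-MB-468) was positive for MAP6D1 at 4.82, CHAC1 at 3.87, SLC7A11 at 2.94, RBM41 at 1.19, APPL1 at 1.12, ERGIC2 at 0.95, RB1CC1 at 0.92 and OPA1 at 0.75. It was negative for NRXN3 at −3.97, CDH12 at −2.94, CA9 at −2.79, SNAR-E at −2.76, SPRY2 at −1.76, CKS2 at −1.31, LIG1 at −1.06, FANCD2 at −0.80, TPX2 at −0.62 and HSPA5 at −0.61. NRXN3 did not pass the filter on low values in MDA-MB-468, so no response was tested there. MAP6D1 had at most 16 and NRXN3 at most 11 reads in any of the 12 SUM1315 libraries. CDH12 had 1, 0 and 0 reads in OlaR cells with CDDP, so the sizes for these genes are uncertain. The lines differed in olaparib and CDDP doses, in BRCA1 status and, as the study reports, in PARP-1 activity. They are also different cell lines with separately derived OlaR cultures, and these differences cannot be told apart here. Groups of 3 libraries were not tested for outlying samples.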

How the results depend on the processing

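The 841 calls were 616 with voom, 707 with edgeR, 947 with DESeq2, 1190 in a fit of only the groups compared, 578 without the filter and 846 with the replicate block, which moved no count by over 1.5 times. Without 1 library in turn they were 563 to 720, with 139 to 226 higher and 416 to 513 lower. The genes that were higher numbered 160 without the filter and 486 in the fit of only the groups compared. Long genes that were lower numbered 94 to 121 without 1 library in turn. An absolute log2 difference of at least 1 left 335 (61 higher, 274 lower), 173 for CDDP in parental and 502 in OlaR cells, 2177 for OlaR against parental cells before CDDP, 88 at 2 µM, 1322 against the drug-free reference, 276 in MDA-MB-468 and 86 for the difference between lines. Voom gave 1509 for CDDP in parental and 1274 in OlaR cells, the reverse of the order of 1108 and 2199, 98 at 2 µM and 91 between lines. DESeq2 gave 366 at 2 µM and 251 between lines, and at 2 µM there were 76 without the filter and 440 in the fit of only the groups compared. Without 1 library, CDDP changed 573 to 1144 genes in parental and 1386 to 1781 in OlaR cells, and the other counts were 5408 to 5637 before CDDP, 40 to 204 at 2 µM, 2855 to 3232 against the drug-free reference, 1547 to 1894 in MDA-MB-468 and 120 to 190 between lines. The sign turned for differences near 0, in CCL20 (0.01992 with edgeR, 6.732e-05 with DESeq2, and −0.3019 to 0.07986 without 1 library in turn), POLH (−0.1483 to 0.1177 without 1 library) and RAD51AP1 (−0.04622 to 0.2436). Without 1 library the CDDP change of NRXN3 in parental cells reached 0 (−0.4817 to 0), and the sign turned for EGR1 (−0.1532 to 0.004076), RB1CC1 (−0.1901 to 0.03872), CDK14 (−0.3485 to 0.004671), BCL2L1 (−0.01725 to 0.07549) and PMEPA1 (−0.01607 to 0.1203) in parental and TK1 (−0.08624 to 0.03548) and LINC00621 (−0.2112 to 1.155, and −0.002954 with edgeR) in OlaR cells. The causes were not tested. The call of HNRNPKP3 was lost in 8 and that of LINC00621 in 10 of 12 fits without 1 library, and edgeR gave adjusted p = 1 for NRXN3. BRCA1 and BIRC3 passed without 1 library in 1 fit each. Depth limits genes with few reads in OlaR cells, and 2754 genes had an unadjusted p under 0.05.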
